A study of Mus musculus with 7 samples.

Results

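The messenger RNAs of 9 mouse genes of transforming growth factor beta (TGF-beta) and bone morphogenetic protein (BMP) signalling were followed in spleens prepared as a site for transplanted liver cells. The 9 genes were chosen by symbol, and all 9 were among the 22173 genes of the deposited table. They were the ligand genes Tgfb1, Tgfb2, Tgfb3, Inhba, Bmp2, Bmp4 and Gdf6, and the genes Tgfbi and Ccn2, whose transcription TGF-beta is known to raise. RNA sequencing had been done on 7 spleen libraries, 3 of a control group that received phosphate-buffered saline (PBS) and 4 of a group remodelled by 4 injections of the biomaterial sHA-X. Both groups then received hepatocytes, liver parenchymal cells, in the spleen, which was collected 30 days afterwards. Strain, genotype, sex and age of the mice and the origin of the hepatocytes are not stated in these sources. The title of the study names force-driven release of TGF-beta as the means of remodelling. The comparison asks whether the mRNAs of these ligands and targets differed between the spleens of the groups. It measures mRNA in whole spleen and not the amount of TGF-beta protein or its active share.

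TGF-beta family ligands are secreted dimers that bind pairs of type I and type II receptor kinases, which phosphorylate SMAD transcription factors. TGF-betas and activins act mainly through SMAD2 and SMAD3, and BMPs and related growth and differentiation factors through SMAD1, SMAD5 and SMAD9. A TGF-beta is stored in the matrix in a latent complex with its own propeptide, and integrins, proteases or thrombospondin release it. In spleen, TGF-beta restrains lymphocytes and acts on the fibroblasts that lay down matrix.

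Promoter sequences of 5 of the 9 genes (Tgfb1, Tgfb2, Tgfbi, Inhba and Bmp4) were in the RefSeq table of GRCm38.p6, the same assembly as the build mm10 named in the submitters' processing notes. The sequences of Tgfbi and Bmp4 are shown because, of the genes called higher in sHA-X spleens, these have an entry. Each runs from 250 bases before to 50 bases after the annotated start, 5′ to 3′ on the strand of the gene. Capitals mark CAGAC, the core of the SMAD-binding element, read on either strand (as GTCTG on the other), and GGCGCC, a GC-rich SMAD motif that reads the same on both strands. The Tgfbi sequence lies on the plus strand at chr13:56609336-56609635, and the Bmp4 sequence on the minus strand at chr14:46390620-46390919.
Tgfbi: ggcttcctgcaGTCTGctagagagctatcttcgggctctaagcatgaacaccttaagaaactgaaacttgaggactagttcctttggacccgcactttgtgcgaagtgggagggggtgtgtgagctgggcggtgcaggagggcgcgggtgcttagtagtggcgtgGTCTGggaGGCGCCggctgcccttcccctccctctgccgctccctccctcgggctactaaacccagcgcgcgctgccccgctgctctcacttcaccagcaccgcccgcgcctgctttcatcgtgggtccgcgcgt
Bmp4: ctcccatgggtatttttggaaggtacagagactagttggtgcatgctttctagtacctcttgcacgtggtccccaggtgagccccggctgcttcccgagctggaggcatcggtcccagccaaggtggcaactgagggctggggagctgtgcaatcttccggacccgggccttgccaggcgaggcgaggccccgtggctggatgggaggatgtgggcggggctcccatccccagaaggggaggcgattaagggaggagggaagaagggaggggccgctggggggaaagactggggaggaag

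In the Tgfbi sequence GTCTG began at positions -239 and -85 relative to the start and GGCGCC at -77. The Bmp4 sequence held neither motif. CAGAC was in 49.6% and GGCGCC in 11.9% of all 32851 promoters in the table. A match to CAGAC in a window of 300 bases is thus common, and a match to GGCGCC is less so. The Tgfb2 promoter held CAGAC in 2 places, and those of Tgfb1 and Inhba held neither motif. The windows of Tgfb2 (chr1:186705940-186706239) and Inhba (chr13:16011601-16011900) lie inside the gene spans printed below. They are therefore not at the 5′ ends of those spans.

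Levels are FPKM, fragments scaled to gene length and to library size. They allow a rough comparison between genes and between libraries, but differences in RNA composition between libraries are not corrected. The deposited values came back as whole reads, with 29543963 to 37141978 reads per library. The 10 marker genes of spleen stroma and the marginal zone were above 0 in all 7 libraries. Values below are in the order of the replicate numbers, PBS first. Markers of other cell types were high in some libraries and not in others. The summed level of 10 pancreatic acinar genes was 972.4 FPKM in PBS replicate 2 and 15.4 to 35.2 FPKM elsewhere. The summed level of 10 skeletal muscle genes was 216.1 FPKM in sHA-X replicate 2 and 8.497 to 16.4 FPKM elsewhere. The summed level of 10 hepatocyte genes was 2.38 to 23.6 FPKM in 5 libraries but 737.9 and 767.6 FPKM in sHA-X replicates 3 and 4.

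Tgfb3, Tgfbi, Bmp4 and Bmp2 were higher in sHA-X spleens, Gdf6 was lower, Tgfb1 and Ccn2 did not pass the test, and Tgfb2 and Inhba were below the level needed for testing (a mean of 1 FPKM). The test was limma on log2(FPKM + 1) across 11920 genes, with a gene called at a Benjamini-Hochberg adjusted p under 0.05. Of the 7 genes tested, 4 were called higher and 1 lower, against 9.30% of all tested genes called higher, 5.03% called lower and 14.3% called in either direction. The groups did not overlap for 5 of the 7, against 28.8% of all tested genes. The median log2 change of the 7 was 0.34, and that of all tested genes was 0.03. The 9 genes were chosen with earlier results of these data known, so these counts are a description and not a test.

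Tgfb1, the main TGF-beta gene of leukocytes and platelets, had the highest mean of the 9 genes in both groups (NCBI gene 21803, chromosome 7, 25687002 to 25705077). Its PBS libraries held 91.9, 90.2 and 100.1 FPKM, and its sHA-X libraries 97.6, 82.8, 90.9 and 79.8 FPKM. The groups overlapped, with PBS replicate 3 highest and sHA-X replicate 4 lowest. The means were 94.1 ± 5.31 (SD, n = 3) and 87.8 ± 8.06 FPKM (SD, n = 4), a log2 change of -0.10 (SE 0.08, limma adjusted p = 0.45). The 95% interval of the log2 change was -0.29 to 0.08.

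Tgfb2, a TGF-beta known mostly from development and epithelia, was low in both groups (NCBI gene 21808, chromosome 1, 186622787 to 186709697). PBS libraries held 0.812, 0.553 and 0.4995 FPKM and sHA-X libraries 0.746, 0.512, 0.776 and 0.371 FPKM, from 72 to 136 reads per library. The groups overlapped, with means of 0.622 ± 0.167 and 0.601 ± 0.194 FPKM. With a filter of 0.1 FPKM its log2 change was -0.02 (limma adjusted p = 0.93).

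Tgfb3, the TGF-beta linked to tissue repair and formation of the palate, was higher in all 4 sHA-X libraries than in any PBS library (NCBI gene 21809, chromosome 12, 86056743 to 86079041). PBS libraries held 2.41, 1.91 and 2.07 FPKM and sHA-X libraries 4.01, 4.15, 3.84 and 3.96 FPKM, from 207 to 500 reads per library. The sHA-X libraries lay within a narrow band, with a mean of 3.99 ± 0.13 FPKM against 2.13 ± 0.25 FPKM in PBS. The ratio of means was 1.88 and the log2 change 0.68 (SE 0.08, limma adjusted p = 0.0015). The call held in each of the 7 fits that left out 1 library, with adjusted p up to 0.0061. In the GENCODE M21 annotation Ttll5 overlaps Tgfb3 on the opposite strand, and whether reads were counted by strand is not stated in these sources. By the RefSeq coordinates printed here they do not overlap, as Ttll5 spans 85824693 to 86053760 on chromosome 12. Ttll5 was at 0.632 to 0.810 FPKM in PBS and 0.729 to 0.858 FPKM in sHA-X. Tgfb2, Bmp4, Inhba and Ccn2 also overlap other genes of that annotation, whose part in their reads was not tested.

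**Figure D1:**
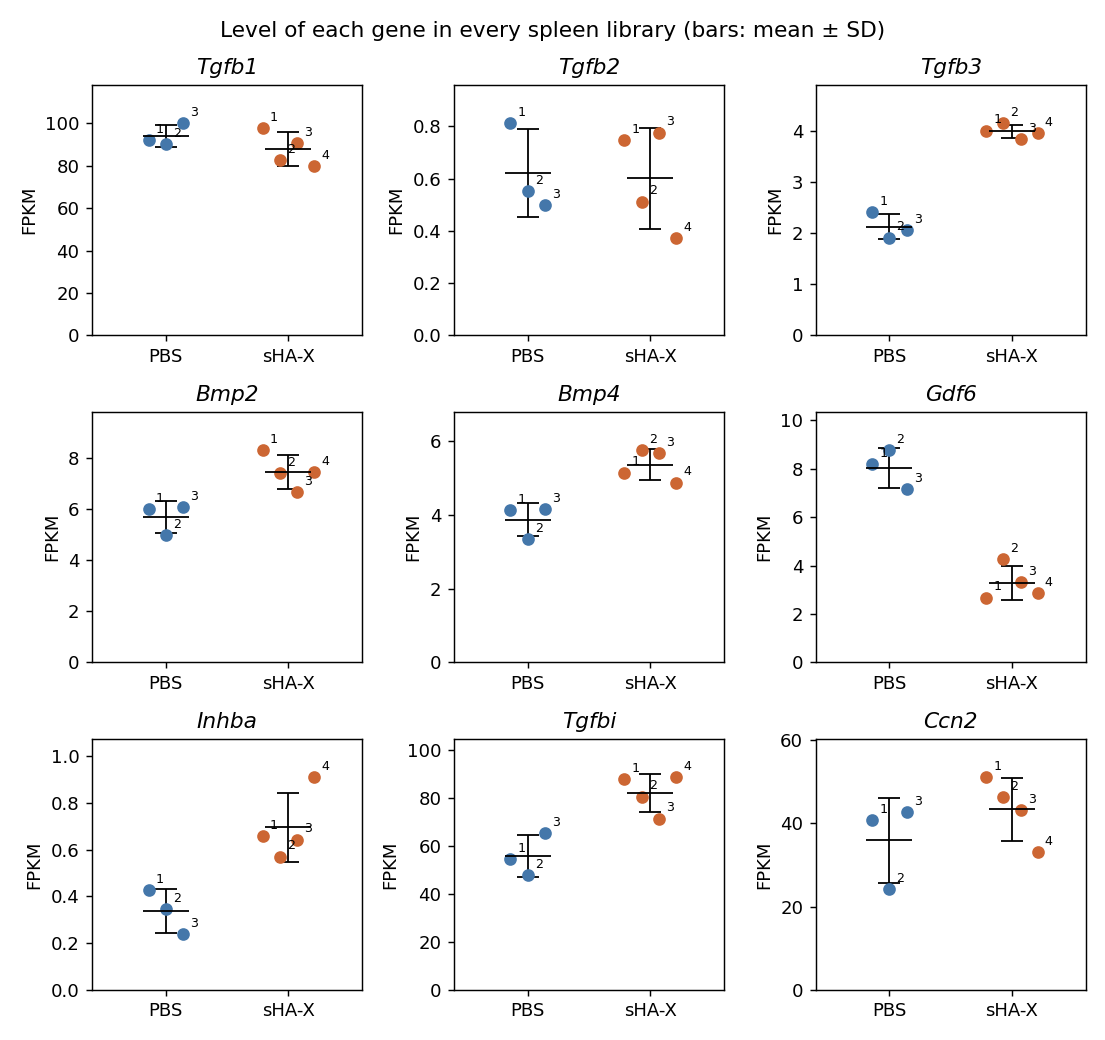
Level of each of the 9 genes in FPKM (y axis, from 0, a scale for each gene) in the 3 PBS libraries and the 4 sHA-X libraries. Points are libraries marked with their replicate number, and bars are mean ± SD. The sHA-X points lie above all PBS points for Tgfb3, Bmp2, Bmp4, Inhba and Tgfbi and below them for Gdf6.

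Within each library, Tgfb1 made up nearly all TGF-beta mRNA. Its share of the summed FPKM of Tgfb1, Tgfb2 and Tgfb3 was 96.6%, 97.3% and 97.5% over the PBS libraries, then 95.4%, 94.7%, 95.2% and 94.9% with sHA-X. The share of Tgfb3 was 2.53%, 2.07% and 2.01% over the PBS libraries, then 3.91%, 4.75%, 4.03% and 4.71% with sHA-X. The sum of the 3 genes overlapped between the groups, at 92.6 to 103 FPKM in PBS and 84.1 to 102 FPKM in sHA-X. These shares are a description of mRNA and were given no test.

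The BMP ligands Bmp2 and Bmp4, close relatives that induce bone and pattern the embryo and that signal through SMAD1 and SMAD5, were both modestly higher in sHA-X spleens. Bmp2 (NCBI gene 12156, chromosome 2, 133552159 to 133562896) stood at 6.02, 5.001 and 6.10 FPKM with PBS, then 8.32, 7.41, 6.68 and 7.47 FPKM with sHA-X. All sHA-X values lay above all PBS values, though sHA-X replicate 3 stood near the highest PBS library. The means were 5.71 ± 0.61 and 7.47 ± 0.67 FPKM, a log2 change of 0.34 (SE 0.09, limma adjusted p = 0.042). Removal of any of PBS 1, PBS 2, sHA-X 1, sHA-X 2 and sHA-X 4 ended the call of Bmp2 (adjusted p up to 0.11), and so did testing with no filter on low values (adjusted p = 0.063).

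Bmp4 (NCBI gene 12159, chromosome 14, 46383525 to 46390669) stood at 4.12, 3.34 and 4.15 FPKM with PBS, then 5.14, 5.75, 5.66 and 4.87 FPKM with sHA-X. The groups did not overlap, and PBS replicate 2 was the lowest library, as it was for Bmp2 and Tgfb3. The means were 3.87 ± 0.46 and 5.36 ± 0.42 FPKM, a log2 change of 0.39 (SE 0.09, limma adjusted p = 0.025). Removal of any of PBS 1, PBS 2, sHA-X 1, sHA-X 2 and sHA-X 3 ended this call (adjusted p up to 0.066). With the second library of each group removed, the adjusted p was 0.17 for Bmp2 and 0.12 for Bmp4.

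Gdf6, a ligand of the BMP branch also known as BMP13 and required for joints and the eye, was the gene of the 9 that fell (NCBI gene 242316, chromosome 4, 9844372 to 9862345). PBS libraries held 8.18, 8.75 and 7.15 FPKM and sHA-X libraries 2.68, 4.26, 3.33 and 2.87 FPKM. The lowest PBS library was well above the highest sHA-X library. Reads behind these values were 845 to 988 in PBS and 302 to 446 in sHA-X. The means were 8.03 ± 0.81 and 3.28 ± 0.70 FPKM, 2.45-fold lower in sHA-X by the ratio of means, with a log2 change of -1.09 (SE 0.13, limma adjusted p = 0.0017). The call held in each of the 7 fits that left out 1 library, with adjusted p up to 0.013.

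The order of the BMP branch ligands differed between the groups. In PBS spleens Gdf6 was the most abundant of Gdf6, Bmp2 and Bmp4, and its level was 1.72 to 2.62 times that of Bmp4 and 1.17 to 1.75 times that of Bmp2 in the same library. In sHA-X spleens it was the least abundant of them, at 0.521 to 0.741 times Bmp4 and 0.322 to 0.574 times Bmp2.

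**Figure D2:**
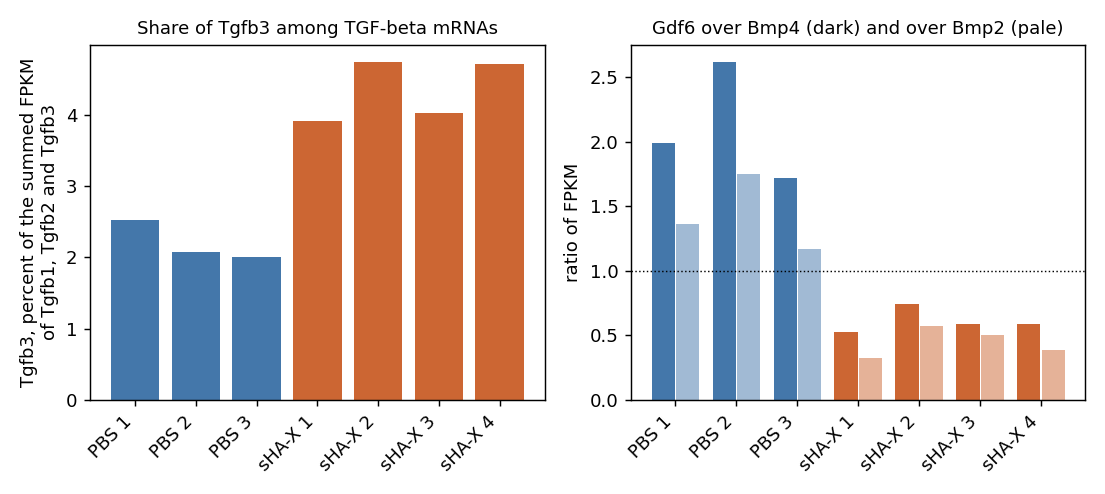
Ratios of FPKM within each library, with PBS libraries in blue and sHA-X libraries in orange. On the left, the share of Tgfb3 in the summed level of Tgfb1, Tgfb2 and Tgfb3 (y axis, percent) was at most 2.53% in PBS and at least 3.91% in sHA-X. On the right, the ratio of Gdf6 to Bmp4 (dark bars) and to Bmp2 (pale bars) was above 1 (dotted line) in the 3 PBS libraries and below 1 in the 4 sHA-X libraries.

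Inhba encodes the beta A subunit, which forms activin A, a ligand that shares SMAD2 and SMAD3 with TGF-beta (NCBI gene 16323, chromosome 13, 16004256 to 16031609). It was low, with PBS libraries at 0.426, 0.344 and 0.237 FPKM and sHA-X libraries at 0.658, 0.570, 0.642 and 0.909 FPKM, from 99 to 423 reads per library. All sHA-X values lay above all PBS values, and sHA-X replicate 4 was highest. The means were 0.336 ± 0.095 and 0.695 ± 0.148 FPKM, a ratio of 2.07. Its mean over all libraries was under the filter, so it was not tested with the rest. With a filter of 0.1 FPKM the log2 change was 0.34 (limma adjusted p = 0.045), and with no filter the adjusted p was 0.048.

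Tgfbi, a secreted matrix protein that binds collagens and integrins and that macrophages and fibroblasts make in response to TGF-beta, was higher in sHA-X spleens (NCBI gene 21810, chromosome 13, 56609586 to 56639359). PBS libraries held 54.5, 47.9 and 65.1 FPKM and sHA-X libraries 87.8, 80.5, 71.3 and 88.5 FPKM. The groups did not overlap, with PBS replicate 3 and sHA-X replicate 3 nearest to each other. The means were 55.9 ± 8.70 and 82.0 ± 7.98 FPKM, a ratio of 1.47 and a log2 change of 0.55 (SE 0.11, limma adjusted p = 0.016). Removing PBS replicate 1 ended this call (adjusted p = 0.071), as did removing the second library of each group (0.085). The promoter printed above belongs to this gene.

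Ccn2, also named connective tissue growth factor, is a matrix-associated protein whose gene responds to TGF-beta and to mechanical load (NCBI gene 14219, chromosome 10, 24595442 to 24598683). PBS libraries held 40.8, 24.2 and 42.7 FPKM and sHA-X libraries 51.1, 46.3, 43.2 and 33.1 FPKM. The groups overlapped, and PBS replicate 2 was the lowest of all libraries. The means were 35.9 ± 10.2 and 43.4 ± 7.59 FPKM, a log2 change of 0.29 (SE 0.23, limma adjusted p = 0.46) with a 95% interval of -0.27 to 0.85. Without PBS replicate 2 the log2 change was 0.04 (adjusted p = 0.90).

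**Figure D3:**
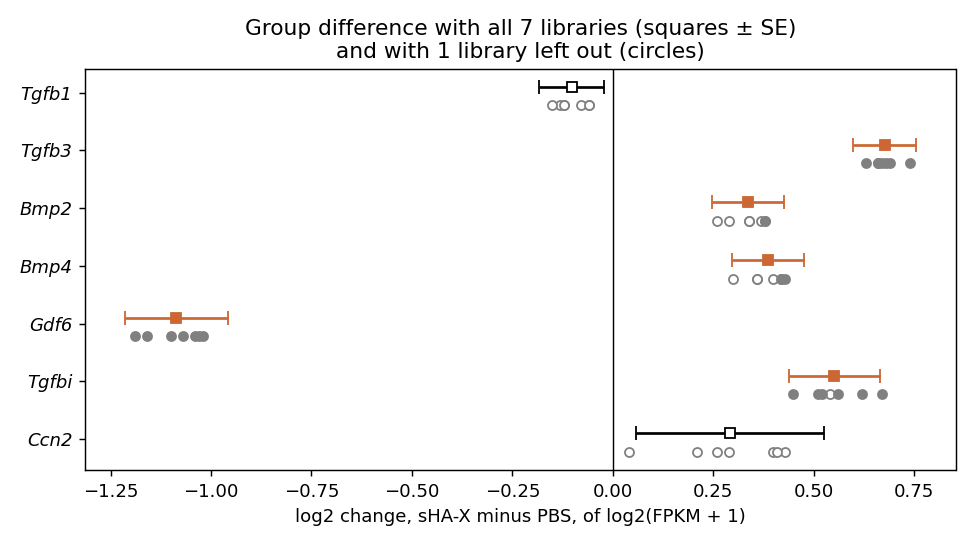
Group difference of the 7 tested genes on the log2(FPKM + 1) scale (x axis, sHA-X minus PBS). Squares are the fit on all 7 libraries with its SE, filled where the limma adjusted p was under 0.05, and grey circles are the fits that leave out 1 library, filled on the same rule. All circles of Tgfb3 and Gdf6 are filled, Bmp2, Bmp4 and Tgfbi have open ones, and Tgfb1 and Ccn2 have no filled marker.

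The 9 genes ran from 94.1 to 0.336 FPKM by their PBS means. In PBS the order was Tgfb1, Tgfbi, Ccn2, Gdf6, Bmp2, Bmp4, Tgfb3, Tgfb2 and Inhba, and no neighbours in it had overlapping ranges. In sHA-X the order was Tgfb1, Tgfbi, Ccn2, Bmp2, Bmp4, Tgfb3, Gdf6, Inhba and Tgfb2. Here the ranges of Tgfb1 and Tgfbi overlapped (79.8 to 97.6 and 71.3 to 88.5 FPKM), as did those of Tgfb3 and Gdf6 and those of Inhba and Tgfb2. The spread between libraries was smallest for Tgfb3 in sHA-X, where the SD was 3.21% of the mean, and largest for Tgfb2 in sHA-X, at 32.2%.

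The genes whose pattern was most like that of each called gene, and of Tgfb1, were found by the Pearson correlation of log2(FPKM + 1) over the 7 libraries. With 7 libraries in groups of 3 and 4 such values come out high for many genes, and they are given as a description with no test. Nearest to Tgfb3 were Fzd7 (r = 0.996), a Wnt receptor gene, Ptafr (0.991) and Maff (0.991), and 228 genes reached 0.95. Nearest to Gdf6 were Pnisr (0.993), Jund (0.990) and Sfpq (0.988), of which Jund encodes an AP-1 transcription factor and Sfpq a splicing factor, and 79 genes reached 0.95. Nearest to Tgfbi were Capns1 (0.993), Lima1 (0.991) and Scpep1 (0.991). Nearest to Bmp2 were Igsf10 (0.993), Thbs2 (0.992), a thrombospondin gene, and Angptl2 (0.989), and nearest to Bmp4 were Pkp4 (0.992), Tmbim1 (0.992) and Eri3 (0.985). For Tgfb1, whose level moved little, the nearest were Nelfb (0.990), Pde4b (0.978) and Plxdc1 (0.969), and 7 genes reached 0.95.

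Other genes of the pathway were read from 7 lists of ligands, receptors, latency and activation, SMADs, antagonists, TGF-beta targets and BMP targets, which hold none of the 9 genes. Of 142 genes with a row, 99 were tested, and 26 rose, 4 fell and 69 did not pass. That was 26.3% higher and 4.04% lower, beside 9.30% and 5.03% of all tested genes, with a median log2 change of 0.19 beside 0.03. The filter keeps genes that are high in a single group, and the lists were chosen with earlier results of these data known. These shares therefore describe the tested genes and not the lists. Without PBS replicate 1, 15 rose, and without PBS replicate 2, 14 rose.

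Among the other ligands, 2 of 8 tested genes rose and none fell, beside 9.30% and 5.03% of all tested genes. The genes that rose were Gdf10 and Bmp1. Bmp1 encodes a protease that cleaves procollagen and the BMP antagonist chordin and is no BMP despite its name. Gdf10, also called BMP3B, went from 4.82 ± 0.997 to 8.84 ± 1.19 FPKM (log2 change 0.77, limma adjusted p = 0.0080), and Bmp1 from 6.34 ± 0.40 to 9.98 ± 1.15 FPKM (0.58, adjusted p = 0.0052). Bmp10, Gdf1, Gdf5 and Lefty2 were at 0 in all 7 libraries.

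Among receptors, 2 of 11 tested genes rose and none fell, beside 9.30% and 5.03% of all tested genes. Both rose by small amounts, with calls that were lost when 1 library was left out. Acvrl1, the type I receptor ALK1 of endothelial cells, went from 8.93 ± 1.06 to 11.7 ± 0.75 FPKM (limma adjusted p = 0.027, up to 0.082 with a library removed, lost for each of PBS 1 and 2 and sHA-X 1, 2 and 4). Acvr1, a type I receptor of BMPs, went from 1.97 ± 0.16 to 2.63 ± 0.21 FPKM (adjusted p = 0.048, lost without any of the 7 libraries, up to 0.13). Its call was also lost with no filter, a filter of 0.1 FPKM, median-of-ratios scaling, no robust variance and voom, at adjusted p of 0.050 to 0.058. The TGF-beta receptors did not pass. Tgfbr1 was 17.4 ± 1.597 and 19.5 ± 2.65 FPKM (adjusted p = 0.41) and Tgfbr2 61.2 ± 6.06 and 67.5 ± 5.61 FPKM (adjusted p = 0.34).

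In the list of latency and activation, 5 of 19 tested genes rose and 1 fell, beside 9.30% and 5.03% of all tested genes. The matrix metalloproteinase genes Mmp2, Mmp9 and Mmp14, whose proteases can release latent TGF-beta, rose. Mmp2 went from 6.64 ± 1.13 to 18.3 ± 4.14 FPKM (log2 change 1.33, limma adjusted p = 0.0036), Mmp14 from 23.8 ± 1.21 to 35.4 ± 4.28 FPKM and Mmp9 from 9.11 ± 1.96 to 15.0 ± 0.90 FPKM. The integrin subunits went in opposite directions. Itgb5, which pairs with the alpha V subunit, rose from 16.7 ± 2.46 to 30.2 ± 1.67 FPKM (log2 change 0.83, adjusted p = 0.0014). Itgb3, which platelets carry in abundance, fell from 28.6 ± 2.91 to 19.2 ± 0.96 FPKM (-0.55, adjusted p = 0.0034). Thbs2 rose from 5.81 ± 0.94 to 9.44 ± 1.53 FPKM (adjusted p = 0.022, up to 0.059 with a library removed, lost for each of PBS 2 and sHA-X 2 and 4). The latent TGF-beta binding protein gene Ltbp1 was 2.46 ± 0.39 and 2.39 ± 0.34 FPKM (adjusted p = 0.88). Lrrc32, whose product GARP holds latent TGF-beta on regulatory T cells and platelets, was 5.82 ± 0.67 and 6.95 ± 0.36 FPKM (adjusted p = 0.11, and 0.043 with PBS 3 removed).

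Of the genes for SMADs and their regulators, 1 of 15 tested rose and none fell, beside 9.30% and 5.03% of all tested genes. It was Pmepa1, a TGF-beta induced inhibitor of SMAD signalling, which went from 3.02 ± 0.61 to 4.90 ± 0.44 FPKM (log2 change 0.56, limma adjusted p = 0.016). Smad7, the inhibitory SMAD induced by TGF-beta and BMPs, was 9.90 ± 0.57 and 8.15 ± 0.62 FPKM (log2 change -0.25, adjusted p = 0.054), with all sHA-X values below all PBS values. It passed with median-of-ratios scaling (-0.28, limma adjusted p = 0.034) and with voom on recovered reads (-0.29, adjusted p = 0.046). The sum of the list was 141.4 to 154.3 FPKM in PBS and 141.3 to 147.3 FPKM in sHA-X.

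Of the extracellular antagonists, 6 of 14 tested rose and none fell, beside 9.30% and 5.03% of all tested genes. Those that rose included Fmod, Dcn and Bgn, small proteoglycans of the matrix that bind TGF-beta, and the BMP modulators Chrdl1 and Bmper. Dcn went from 31.3 ± 6.98 to 103.3 ± 21.8 FPKM (log2 change 1.69, limma adjusted p = 0.0047) and Fmod from 6.90 ± 0.94 to 16.7 ± 2.74 FPKM (1.16, adjusted p = 0.0015). Chrdl1 went from 0.462 ± 0.169 to 1.43 ± 0.23 FPKM (0.73, adjusted p = 0.0057). Its mean passed the filter of 1 FPKM only through the sHA-X libraries, and it was not tested once sHA-X 1, 2 or 4 was removed or in the replicate block. With no filter its adjusted p was 0.011. Bgn went from 164.5 ± 20.8 to 225.3 ± 19.7 FPKM (0.46, adjusted p = 0.022), a call lost on removal of PBS 1, PBS 2, sHA-X 1 or sHA-X 2 (up to 0.071).

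Of the TGF-beta target genes, 9 of 22 tested rose, 2 fell and 11 did not pass. Over all tested genes, 9.30% were called higher and 5.03% lower. Those that rose included the collagen genes Col1a1, Col1a2 and Col3a1, the crosslinking enzyme gene Lox, the matrix genes Postn and Tnc, the protease inhibitor gene Timp1, and Cdkn2b, a cell cycle inhibitor. Cdkn2b went from 0.911 ± 0.069 to 2.02 ± 0.31 FPKM (log2 change 0.66, limma adjusted p = 0.0042) and Tnc from 0.361 ± 0.066 to 3.01 ± 1.66 FPKM (1.48, adjusted p = 0.016, up to 0.071 without PBS replicate 1 or 2). Cdkn2b and Tnc were under 1 FPKM in PBS and passed the filter only through the sHA-X libraries. With no filter their adjusted p was 0.0085 and 0.022. Col1a2 went from 45.7 ± 5.78 to 93.9 ± 22.8 FPKM (1.003, adjusted p = 0.015, and 0.051 without PBS replicate 2). The genes that fell were Eln, the elastin gene, from 24.1 ± 5.92 to 7.56 ± 0.82 FPKM (-1.53, adjusted p = 0.0011), and Snai2, a repressor of epithelial genes, from 1.55 ± 0.06 to 0.956 ± 0.187 FPKM (-0.39, adjusted p = 0.034). The call of Snai2 was lost without any library except sHA-X replicate 3 (up to 0.097) and with voom (0.054). Its mean was under 1 FPKM in sHA-X, and it passed the filter only through the PBS libraries. With no filter the limma adjusted p of Snai2 was 0.039.

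Of the BMP target genes, 1 of 11 tested rose and 1 fell, beside 9.30% and 5.03% of all tested genes. Id3, an inhibitor of helix-loop-helix factors that BMPs induce, stood at 73.7, 62.9 and 85.9 FPKM with PBS, then 49.4, 49.7, 51.7 and 48.3 FPKM with sHA-X. It was lower in all 4 sHA-X libraries than in any PBS library, with a log2 change of -0.55 (SE 0.10, limma adjusted p = 0.0080). Its relative Id1 was 16.8 ± 4.21 and 12.8 ± 0.40 FPKM (-0.34, adjusted p = 0.16). That value turned on single PBS libraries, at -0.53 (adjusted p = 0.013) with PBS 2 removed and -0.18 (0.30) with PBS 3 removed. With the second library of each group removed it was -0.54 (0.027). Gata2, a transcription factor of blood progenitors and mast cells, rose from 3.32 ± 0.47 to 4.41 ± 0.32 FPKM (0.33, adjusted p = 0.048), a call lost without any library except PBS replicate 3 (up to 0.17). This call was also lost with no filter, a filter of 0.1 FPKM, no robust variance and voom, at adjusted p of 0.050 to 0.067.

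**Figure D4:**
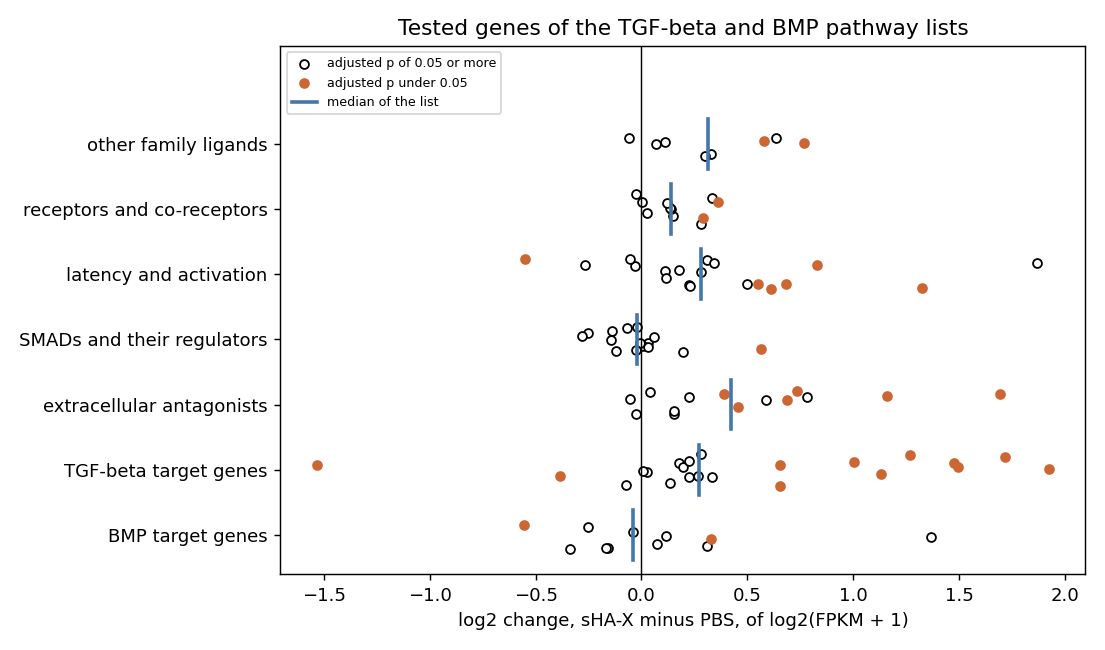
Log2 change (x axis, sHA-X minus PBS, log2(FPKM + 1) scale) of each tested gene in the 7 pathway lists (rows, with points spread vertically for legibility). Filled points had a limma adjusted p under 0.05, and blue bars are list medians, which ran from -0.04 for BMP targets to 0.42 for antagonists. Points to the left with a call are Itgb3, Eln, Snai2 and Id3.

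Markers of some cell types also differed between the groups. In bulk tissue, fewer cells of a type and less RNA per cell cannot be told apart. The counts below stand beside 9.30% of all tested genes called higher and 5.03% called lower. Of 10 red pulp macrophage genes 10 rose, with a sum of 1363 to 1781 FPKM in PBS and 2788 to 3082 FPKM in sHA-X. Of 10 fibroblast and reticular cell genes 6 rose and 1 (Cxcl13) fell, with Col1a1 and Col1a2 also in the list of TGF-beta targets and sums of 508.2 to 642.8 and 544.2 to 698.7 FPKM. Of 10 monocyte and neutrophil genes 3 rose, with sums of 1865 to 2990 and 3254 to 4899 FPKM.

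Platelet and B cell genes went the other way. Of 10 platelet and megakaryocyte genes 8 fell, with sums of 453.4 to 573.1 and 319.7 to 394.1 FPKM, and of 10 B cell genes 8 fell, with sums of 1783 to 2130 and 1207 to 1389 FPKM. Of 10 T cell genes 1 (Cd8a) fell. Of 10 endothelial cell genes 1 rose, with overlapping sums of 151.3 to 196.4 and 176.0 to 192.7 FPKM. Smooth muscle genes, of which 1 of 9 tested rose, had overlapping sums of 167.4 to 199.4 and 197.5 to 217.9 FPKM. None of the 10 erythroid or 7 tested mesothelial genes passed. The erythroid sum was large and uneven, at 45520, 42330 and 21970 FPKM in PBS and 24030, 16340, 25970 and 18100 FPKM in sHA-X. All genes of these lists were above 0 in every library. The part of these cell types in the values of the 9 genes was not tested.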

How the data were processed

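The deposited table gives 1 value per gene and library, and its header names no unit. The authors' values were read as FPKM from their form: low values of a gene are multiples of 1 step. Dividing by that step gave whole reads (tolerance 0.02 of a read) for 100.0% of the 16889 genes detected in 2 or more libraries. Tools named by the submitters' processing notes, with no role, are HISAT2, fastp, HTSeq, DESeq2 and R 3.2.0, with the build mm10. For each gene with a mean of at least 1 FPKM, log2(FPKM + 1) was compared between groups by limma 3.58.1 under R 4.3.3, using a variance trend and robust moderation and no covariate. P-values were adjusted by Benjamini-Hochberg over the 11920 genes. A change on this scale understates that of low genes. The fit was tested on simulated data in which every gene had the same spread. That test does not cover genes of unequal spread. The labels do not say that each library came from its own animal. The p-values set the group difference against the spread between these libraries, which were treated as independent. The 9 genes and all lists were chosen with earlier results of these data known. Genes named beyond the 9 were, per pathway list, up to 4 called genes with the smallest p in each direction, 8 set by name, and the 3 genes most correlated with each called gene and Tgfb1. Ttll5, the remaining called genes of a list, genes at 0 and marker genes were named after their values were seen. Some genes of the lists are counted but not reported here by name. Coordinates are RefSeq's for GRCm38.p6, matched by NCBI gene identifier. Alternatives were another pseudocount, other filters, a median-of-ratios scaling, no robust variance, limma with voom on the recovered reads, a replicate block and libraries left out.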

Additional observations from a re-analysis of the deposited data

Results flagged for a closer look

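Chrdl1, which encodes the BMP antagonist chordin-like 1, was 1.09 FPKM in sHA-X replicate 3 and 1.502 to 1.58 FPKM in the other 3 sHA-X libraries. The gap to its nearest neighbour was wide for the range of the group. It was 1 of 37 genes examined in this way, and chance alone marks about 1 in 20 groups.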

How the results depend on the processing

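Tgfb3 and Gdf6 kept their direction and their call under all alternatives run. With another pseudocount, a filter of 0.1 FPKM, median-of-ratios scaling, no robust variance or voom on recovered reads, Bmp2, Bmp4 and Tgfbi also kept theirs. With no filter 4 of the 9 genes were higher, with Inhba in place of Bmp2. The scaling moved the split of all calls from 1108 higher and 600 lower to 1002 and 843 (from 64.9% to 54.3% higher). With 1 library left out, calls over all genes ran from 488 to 1263 higher and from 228 to 637 lower, calls among the 9 genes from 1 to 4 higher with 1 lower in each fit, and calls among the pathway genes from 14 to 29 higher and from 3 to 4 lower. Leaving out both PBS replicate 2 and sHA-X replicate 2 gave 492 higher and 330 lower over all genes, 1 of the 9 genes higher (Tgfb3) and 17 pathway genes higher; for the pathway genes this alternative was chosen after seeing the data. These fits hold fewer libraries, and what else ended a call was not tested.

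The labels do not say whether the replicate numbers pair the libraries, and no pairing was seen. The correlation of deviations from the group means was 0.15, -0.21 and -0.29 for the same-numbered libraries 1 to 3. It was -0.179 to 0.245 for the other pairs of libraries. Deviations within a group depend on each other, so these values cannot exclude pairing. A replicate block on those 6 libraries gave 304 higher and 86 lower genes, with 1 of the 9 higher (Tgfb3) and 1 lower (Gdf6). It gave 13 pathway genes higher and 2 lower. Without the block, the same 6 libraries gave 712 higher and 351 lower genes, with 3 of the 9 higher and 1 lower. Among the pathway genes 19 were then higher and 3 lower. Tgfb2 and Inhba had the fewest reads in PBS, at 72 to 136 and 99 to 423 per library over both groups.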

Other observations

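Some ligand and antagonist genes were too low for testing, and these were chosen after their values were seen. Inhbc and Inhbe, which encode activin subunits known from hepatocytes, were detected mainly in sHA-X replicates 3 and 4, the libraries with high hepatocyte markers, at 0.363 and 0.475 FPKM for Inhbc and 0.122 and 0.497 FPKM for Inhbe. In the other 5 libraries Inhbc was at most 0.0475 FPKM and Inhbe was listed at 0. Fst, which encodes the activin-binding protein follistatin, ranged from 0.319 to 0.495 FPKM over the 4 sHA-X libraries and from 0 to 0.130 FPKM over the 3 PBS libraries.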
